A study of Homo sapiens with 39 samples.

Results

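KG-1a is an immature variant subline of the KG-1 acute myeloid leukemia line. Its response to tamibarotene was read from 5 of the 39 arrays of a series on 7 acute myeloid leukemia lines, chosen by the line named in their labels. The 3 tamibarotene arrays come from KG-1a cells given SY-1425 (tamibarotene) at a final 50 nM for 24 h, with 100 nM named as the amount added, and the 2 vehicle arrays from KG-1a cells given DMSO for the same 24 h. Levels of mRNA were measured from total RNA on Affymetrix PrimeView arrays, and the features are the 44988 of 49395 probe sets that name a single gene symbol, which stand for 18132 genes. KG-1a is a single established line from 1 patient, with no engineered allele in either group, and the labels do not say that the arrays come from separate cultures, so p-values measure the spread between these samples. In bulk RNA, fewer cells of a kind and less RNA per cell cannot be told apart.

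Tamibarotene is a synthetic retinoid that activates the retinoic acid receptor alpha, RARA, a nuclear receptor that binds DNA together with a retinoid X receptor. Without ligand the pair recruits corepressors, and with ligand it recruits coactivators and target genes are transcribed. In myeloid precursors retinoic acid is known for inducing enzymes that clear retinoids, such as CYP26A1 and DHRS3, and surface and signaling proteins of maturing granulocytes, such as CD38 and ITGAM.

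The label was checked against markers of blood cell types, all given as normalized log2 intensity. CD34, the surface antigen of progenitors, averaged 9.67 in KG-1a vehicle arrays and between 4.93 and 7.70 in the vehicle arrays of the other 6 lines, so KG-1a had the highest level. KG-1a also had the highest CD7 (7.81), an antigen shared by T cells and some immature leukemias, and the highest CD3D (12.26), while CD3E (4.58), CD5 (3.95) and LCK (3.84) lay near the levels of the other lines. ITGA2B, an integrin chain of megakaryocytes, was also highest in KG-1a (10.5), close to OCI-M1 (10.3). The erythroid and megakaryocyte genes GATA1 (6.14) and HBB (5.18) were lower than in OCI-M1 (9.93 and 6.55). The progenitor receptors KIT (2.71) and FLT3 (3.76) and the granule enzymes MPO (4.90) and ELANE (4.53) were low in KG-1a. The progenitor antigen PROM1 (3.24) lay within the range of the other lines (3.01 to 3.44). Array correlations over all genes were 0.9958 to 0.9976 between tamibarotene arrays, 0.9974 between the vehicle arrays and 0.9923 to 0.9944 across the groups. The 3' minus 5' log2 value of beta-actin, a gauge of RNA integrity, was 0.06, 0.07 and 0.15 in the tamibarotene arrays and 0.09 and 0.07 in the vehicle arrays of KG-1a. Kasumi-1 and Sig-M5 include vehicle arrays with values up to 1.18 and 1.89, which enter only the comparisons of KG-1a with other lines and the shared estimate of the spread.

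The 2 KG-1a vehicle arrays differed from each other for a few genes. Vehicle replicate 1 exceeded vehicle replicate 2 by at least 1 on the log2 scale for 7 genes. These were LYZ, VIM, LAMP5, IL13RA1, MS4A6A, LY86 and CTNNA1, which averaged 6.87 to 11.65 on the arrays of the other lines. For CTNNA1 it was vehicle replicate 2 (3.93) that lay outside the range of the tamibarotene arrays (4.88 to 5.03). Vehicle replicate 2 was the higher by at least 1 for 4 genes. LYZ, the lysozyme of granules and phagocytes, was 3.39, 3.79 and 3.51 in the tamibarotene arrays and 6.54 and 3.75 in the vehicle arrays, so the groups overlapped. It passed the test at -1.58 ± 0.35 (limma adjusted p = 0.00498), and without vehicle replicate 1 the difference was -0.19 (adjusted p = 0.754). VIM, the intermediate filament vimentin, was 2.91, 3.13 and 3.12 with tamibarotene and 5.08 and 3.46 with vehicle. Its difference was -1.21 ± 0.22 (adjusted p = 0.000628), and -0.41 without vehicle replicate 1 (adjusted p = 0.209).

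Tamibarotene raised 219 genes in KG-1a (1.21% of the 18132 tested) and lowered 341 (1.88%) at a limma adjusted p under 0.05. Rises were the larger changes: 71 genes rose by at least 2-fold (0.392%) and 46 fell by at least 2-fold (0.254%). The median log2 change over all genes was -0.02. Among the 560 genes called in either direction (3.09%), the 3 tamibarotene arrays and the 2 vehicle arrays did not overlap for 557. Over all genes, the tamibarotene arrays lay wholly above the vehicle arrays for 16% and wholly below for 23.2%. An unadjusted p under 0.05 was reached by 2221 genes (12.2%). The number of calls depends on each array: it was 139 rises and 144 falls without vehicle replicate 1, 117 rises and 143 falls without vehicle replicate 2, and 178 rises and 220 falls without tamibarotene replicate 1.

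**Figure D1:**
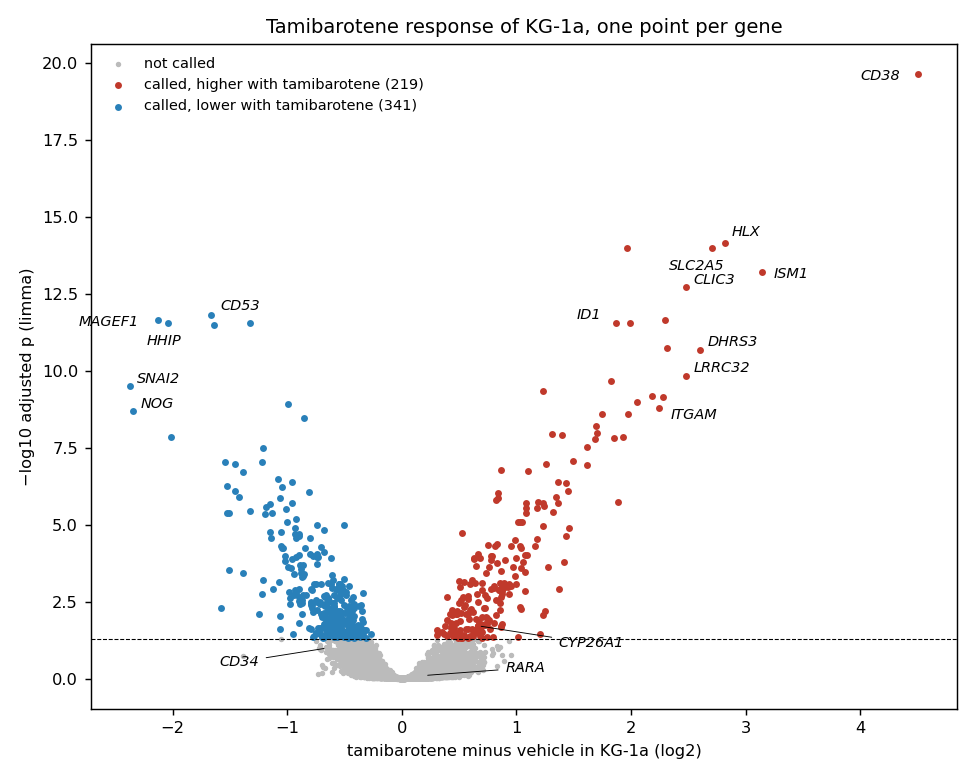
Each point is 1 of 18132 genes, with the tamibarotene minus vehicle difference in KG-1a (log2) across and the −log10 of the limma adjusted p upward; red points were called higher (219), blue points lower (341), and the dashed line is an adjusted p of 0.05. CD38 lies apart from all other genes at 4.50, the farthest fall, SNAI2, lies at -2.37, and RARA and CD34 lie below the line.

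The clearest group was the list of genes that retinoic acid is known to induce. Of 28 measured members, 10 rose (35.7%), none fell and 18 did not pass the test. Over all genes 1.21% rose and 1.88% fell, the shares to set beside the counts of every list below. Listed genes as a whole were called more often than that: of 966 measured in any list, 52 rose and 58 fell. A list share above that of all genes is therefore not by itself particular to that list. The median over the 28 was 0.03, against -0.02 over all genes, since most members stayed near 0. At an unadjusted p under 0.05, 10 were higher and 1 was lower. CLIC3 and SLC2A5 entered the list with their rise in this series known, and without them 8 of 26 rose. The list as a whole was also written with earlier results of these data known, so both counts are a description. The count was 7 without vehicle replicate 1 and 8 to 10 without any other array.

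CD38, an ectoenzyme that consumes NAD on the surface of lymphoid and myeloid cells, had normalized log2 intensities of 9.03, 8.87 and 8.84 in the tamibarotene arrays and 4.56 and 4.26 in the vehicle arrays. It rose by 4.50 ± 0.14 (SE, 22.7-fold, adjusted p = 2.24e-20). No other gene moved as far, and both vehicle arrays sat low on the scale of the array. SLC2A5, the fructose transporter GLUT5, was 10.25, 10.28 and 10.46 with tamibarotene and 7.53 and 7.72 with vehicle, a rise of 2.71 ± 0.14 (6.54-fold, adjusted p = 1.04e-14). The groups were far apart on the probe set used, while its 6 other probe sets gave 0.10 to 2.73. DHRS3, which reduces retinaldehyde to retinol, was 7.13, 7.14 and 7.32 with tamibarotene and 4.82 and 4.37 with vehicle. It rose by 2.60 ± 0.19 (6.07-fold, adjusted p = 2.09e-11), and by 0.11 and 1.40 on its 2 other probe sets. CLIC3, an intracellular chloride channel family member, was 9.34, 9.32 and 9.43 with tamibarotene and 6.90 and 6.88 with vehicle, a rise of 2.48 ± 0.14 (5.57-fold, adjusted p = 1.9e-13).

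Smaller members of the group rose as well. ID1, which blocks DNA binding by basic helix-loop-helix factors, was 11.11, 11.17 and 11.05 with tamibarotene and 9.20 and 9.28 with vehicle (1.87 ± 0.12, adjusted p = 2.68e-12), and its 2 other probe sets gave 1.82 and 2.08. ASB2, the substrate adaptor of a ubiquitin ligase induced by retinoic acid in promyelocytic leukemia cells, was 7.53, 7.91 and 7.83 with tamibarotene and 6.26 and 6.34 with vehicle (1.46 ± 0.20, adjusted p = 1.32e-05). In both genes every tamibarotene array exceeded every vehicle array by more than 1. PLAAT4, a phospholipase and acyltransferase also known as RARRES3, was 10.77, 10.79 and 10.87 with tamibarotene and 9.58 and 9.55 with vehicle (1.24 ± 0.16, adjusted p = 2.39e-06), although its 2 other probe sets ran from -0.13 to 1.28. ICAM1, the adhesion ligand of leukocyte integrins, rose by 1.03 ± 0.22 (adjusted p = 0.00481) and did not pass without vehicle replicate 1. PRAM1, an adaptor of myeloid cells, rose by 0.81 ± 0.20 (adjusted p = 0.0154).

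CYP26A1, the cytochrome P450 that hydroxylates retinoic acid and its best known feedback target, moved little. It was 5.40, 5.64 and 5.94 in the tamibarotene arrays and 5.04 and 4.96 in the vehicle arrays of KG-1a. The groups did not overlap, and the rise of 0.66 ± 0.17 (1.58-fold, adjusted p = 0.0192) did not pass under 6 of the alternatives, among them the fit of KG-1a arrays alone and the omission of tamibarotene replicate 2 or 3 or of either vehicle array. CYP26B1 (-0.04), RARB (0.04), TGM2 (-0.11), CEBPE (-0.02) and CRABP2 (-0.13), other genes known to be induced by retinoic acid, did not pass the test.

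Upstream sequence is shown for CD38, CLIC3 and DHRS3 because they are retinoid-induced genes among the largest rises, and CLIC3 and DHRS3 are the only rises of the 15 largest with a window that held the half-site. The letters searched were AGGTCA, the half-site that retinoid receptors bind, on either strand (TGACCT on the other), and direct repeats of AGGTCA with spacers of 1, 2 and 5 bases. RefSeq windows of 300 bases around start sites (GRCh38.p14) were found for 12 of the 15 genes with the largest rises, 15 windows in all. The half-site was in 2 of the 15 windows, in 1 of 11 windows of the largest falls (CPXM1) and in 13.8% of 35116 windows of all genes. No direct repeat was found in the windows of these rises and falls, against 0.131%, 0.0399% and 0.0883% of all windows for spacers of 1, 2 and 5 bases. In the CLIC3 window the half-site begins 174 bases before the start site, and in 1 of the 3 DHRS3 windows it begins 171 bases before. The 2 other DHRS3 windows, chr1:12618161-12618460 and chr1:12616740-12617039, hold none and belong to other start sites of the gene. Capitals mark it below, and the CD38 window holds none; the known retinoic acid response element of CD38 lies in its first intron, outside the window.
CD38 promoter window, chr4:15778078-15778377, plus strand: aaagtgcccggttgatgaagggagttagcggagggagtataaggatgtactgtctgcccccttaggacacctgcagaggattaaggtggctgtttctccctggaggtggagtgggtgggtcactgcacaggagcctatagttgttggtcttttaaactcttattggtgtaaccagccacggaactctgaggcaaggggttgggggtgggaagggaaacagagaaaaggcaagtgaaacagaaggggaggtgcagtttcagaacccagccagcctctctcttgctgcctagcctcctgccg
CLIC3 promoter window, chr9:136996519-136996818, minus strand: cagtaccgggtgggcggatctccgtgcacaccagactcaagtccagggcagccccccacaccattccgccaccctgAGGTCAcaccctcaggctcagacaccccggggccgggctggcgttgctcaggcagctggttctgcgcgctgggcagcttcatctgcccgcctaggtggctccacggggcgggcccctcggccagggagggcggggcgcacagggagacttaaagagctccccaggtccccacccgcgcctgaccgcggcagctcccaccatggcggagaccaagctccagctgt
DHRS3 promoter window with the half-site, chr1:12596564-12596863, minus strand: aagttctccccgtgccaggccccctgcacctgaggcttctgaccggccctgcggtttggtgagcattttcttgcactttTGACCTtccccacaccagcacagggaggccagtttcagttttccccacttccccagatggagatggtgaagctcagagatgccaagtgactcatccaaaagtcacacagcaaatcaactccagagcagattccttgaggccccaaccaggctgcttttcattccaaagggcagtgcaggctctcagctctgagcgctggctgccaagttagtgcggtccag

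The receptors themselves moved little. RARA was 7.70, 7.74 and 7.98 in the tamibarotene arrays and 7.58 and 7.64 in the vehicle arrays (0.19 ± 0.18, adjusted p = 0.796). The groups did not overlap, but their distance was close to its error, and the 9 other probe sets of RARA ran from -0.27 to 0.25. RARG (-0.07), RXRA (-0.15) and RXRB (-0.17) did not pass the test either. In vehicle arrays the RARA level of KG-1a averaged 7.61, the fifth of the 7 lines, between OCI-M1 (7.80) and Kasumi-1 (7.58), whose arrays lay within 7.64 to 7.89 and 7.57 to 7.58. It was 0.47 ± 0.15 below the mean of the other 6 lines (adjusted p = 0.0105, in a contrast where 20.1% of genes were called lower in KG-1a), and other RARA probe sets gave differences between -0.25 and 0.18. It was not called without vehicle replicate 1 (adjusted p = 0.114) or without vehicle replicate 2 (0.0676). Averaging all 10 RARA probe sets gave a difference of -0.09 (adjusted p = 0.449). Among 23 receptors and coregulators, 1 rose and 1 fell, with a median of 0.04. VDR, the vitamin D receptor, was 7.01, 6.96 and 7.09 with tamibarotene and 6.36 and 6.16 with vehicle (0.76 ± 0.13, adjusted p = 0.00024), and its 3 other probe sets ran from 0.08 to 0.82. TBL1X, a subunit of corepressor complexes, changed by -0.68 ± 0.14 (adjusted p = 0.00414) and did not pass without either vehicle array. Of 18 retinoid enzymes and carriers outside the induced group, RDH13 (0.51, adjusted p = 0.013) was the only one called and was lost without 4 of the 5 arrays.

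Outside the retinoid group, the largest rises were of secreted, nuclear and membrane proteins. ISM1, the secreted protein isthmin, was 6.74, 7.05 and 7.01 with tamibarotene and 3.94 and 3.64 with vehicle, a rise of 3.15 ± 0.17 (8.86-fold, adjusted p = 6.26e-14). HLX, a homeobox factor of hematopoietic progenitors, was 10.24, 10.34 and 10.30 with tamibarotene and 7.54 and 7.41 with vehicle, a rise of 2.82 ± 0.14 (7.05-fold, adjusted p = 7.14e-15). Both genes separated the groups by more than 2 on the log2 scale. LRRC32, the surface anchor of latent TGF-beta also called GARP, was 8.32, 8.11 and 8.48 with tamibarotene and 5.66 and 5.98 with vehicle (2.48 ± 0.19, adjusted p = 1.43e-10). PREX1, an exchange factor for Rac GTPases, was 7.27, 7.39 and 7.60 with tamibarotene and 5.13 and 5.09 with vehicle (2.31 ± 0.16, adjusted p = 1.76e-11), and its 1 other probe set gave 1.06. MN1, a transcriptional coregulator whose high level marks some acute myeloid leukemias, was 5.69, 5.43 and 5.86 with tamibarotene and 3.44 and 3.28 with vehicle (2.30 ± 0.15, adjusted p = 2.22e-12).

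The other rises among the 15 largest ranged from 1.97 to 2.28. They were DENND6B (2.28), a DENN domain protein of Rab GTPase regulation, ITGAM (2.25), the formin FHDC1 (2.18), the immune checkpoint ligand VSIR (2.06), the membrane raft protein FLOT1 (1.99) and the insulin-like growth factor binder IGFBP6 (1.97). Over the 15 genes the standard errors were 0.13 to 0.20 and the folds 3.92 to 22.7. Each of the 15 remained called under every alternative run on single genes that kept it, as did each of the 15 largest falls. The filter on dim genes left out ISM1, LRRC32, MN1, FHDC1 and IGFBP6 among the rises. Among the falls it left out SNAI2, HHIP, SVOPL, LEF1, AKR1C6P, MMP7 and LY96.

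**Figure D2:**
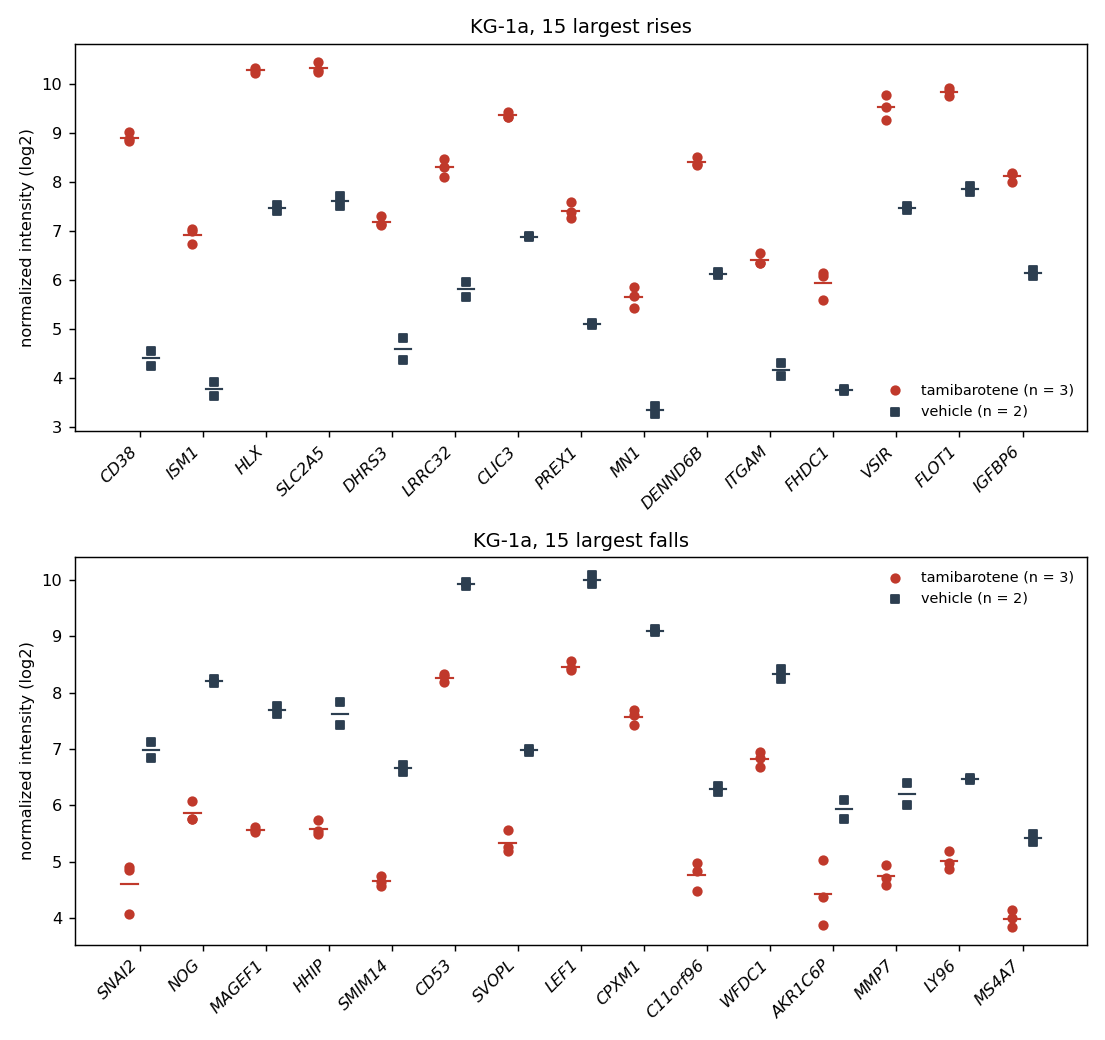
Normalized log2 intensity in each KG-1a array for the 15 genes with the largest rises (upper panel) and the 15 with the largest falls (lower panel); red circles are the 3 tamibarotene arrays, dark squares the 2 vehicle arrays, and short lines the group means. In all 30 genes the tamibarotene arrays lie wholly above or wholly below the vehicle arrays, as the rule that chose them requires.

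The largest falls included a repressor and secreted or membrane proteins. SNAI2, the zinc finger repressor Slug, was 4.84, 4.91 and 4.08 with tamibarotene and 7.12 and 6.84 with vehicle, a change of -2.37 ± 0.19 (5.17-fold lower, adjusted p = 3.16e-10). NOG, the secreted antagonist of bone morphogenetic proteins noggin, was 5.75, 5.75 and 6.08 with tamibarotene and 8.17 and 8.24 with vehicle (-2.34 ± 0.21, adjusted p = 2.07e-09). HHIP, a membrane protein that binds hedgehog ligands, was 5.54, 5.73 and 5.49 with tamibarotene and 7.83 and 7.42 with vehicle (-2.04 ± 0.13, adjusted p = 2.82e-12). In each of these genes the groups were separated by more than 1. LEF1, a nuclear effector of Wnt signaling, was 8.55, 8.43 and 8.39 with tamibarotene and 10.09 and 9.92 with vehicle (-1.54 ± 0.16, adjusted p = 9.22e-08), and its 8 other probe sets ran from -1.84 to -1.14. CD53, a tetraspanin of leukocytes, was 8.29, 8.18 and 8.33 with tamibarotene and 9.97 and 9.89 with vehicle (-1.66 ± 0.10, adjusted p = 1.56e-12), and its 1 other probe set gave -1.67.

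The rest of the 15 were MAGEF1 (-2.12), a member of the MAGE family, the small membrane protein SMIM14 (-2.01), the transporter-like SVOPL (-1.64), the carboxypeptidase-like CPXM1 (-1.53), C11orf96 (-1.53), the secreted WFDC1 (-1.51), the pseudogene AKR1C6P (-1.51), the matrix protease MMP7 (-1.45), the Toll-like receptor 4 partner LY96 (-1.45) and the membrane protein MS4A7 (-1.42). Probe sets disagreed for MMP7, where the 3 others ran from -1.33 to 0.12, and the 3 others of MS4A7 ran from -1.46 to -0.20. AKR1C6P has closely related genes in its family, so its probes may not read it alone. The changes of the 15 corresponded to 2.68-fold to 5.17-fold lower levels.

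Progenitor and lymphoid markers of KG-1a were lowered only in part. CD34 was 8.99, 8.93 and 9.15 in the tamibarotene arrays and 9.68 and 9.67 in the vehicle arrays. The groups did not overlap, but the difference of -0.65 ± 0.21 did not pass (adjusted p = 0.101). It was called under 5 of 14 alternatives, at -0.58 to -0.67 and adjusted p from 0.000185 to 0.0393: KG-1a fitted alone, Kasumi-1 and Sig-M5 left out, array weights, the covariate for RNA integrity and the mean of its probe sets. Under the other 9 the adjusted p reached 0.494. Of 27 stem and progenitor markers, MN1 rose and 2 fell, with a median of -0.02. SPINK2, a protease inhibitor of early progenitors, was 7.93, 7.99 and 7.80 with tamibarotene and 9.18 and 9.0 with vehicle (-1.19 ± 0.15, adjusted p = 2.74e-06). ANGPT1, the ligand angiopoietin 1, changed by -0.90 (adjusted p = 0.0154) and did not pass without tamibarotene replicate 3 or without either vehicle array.

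T and natural killer cell markers had 4 falls (14.3%, against 1.88% of all genes) and no rise among 28, with a median of -0.13. At an unadjusted p under 0.05, 2 were higher and 8 were lower. GZMA, a granule protease of cytotoxic cells, was 8.15, 8.0 and 8.0 with tamibarotene and 8.88 and 9.02 with vehicle (-0.90 ± 0.14, adjusted p = 9.84e-05). GZMB (-0.92), the T-cell receptor zeta chain CD247 (-0.86) and the factor GATA3 (-0.77) also fell. GZMB was dim in every array, at 2.88 to 3.87. Without vehicle replicate 1 the count was 2, and 8 members fell when all probe sets of a gene were averaged. CD7 (0.23, adjusted p = 0.366) and CD3D (-0.38, adjusted p = 0.243) did not pass the test. Of 17 B cell and plasma cell markers, 1 rose (5.88%, against 1.21% of all genes) and 3 fell (17.6%, against 1.88%), with a median of 0.01. VPREB1, a surrogate light chain of early B cells, was 5.95, 6.07 and 6.13 with tamibarotene and 4.33 and 4.39 with vehicle (1.69 ± 0.16, adjusted p = 1.58e-08). Its partner chain IGLL1 moved the other way (-0.98, adjusted p = 0.00236), as did MZB1 (-1.14) and the immunoglobulin joining chain JCHAIN (-0.61).

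Few markers of myeloid maturation passed the test. Of 24 granulocytic markers, 3 rose (12.5%, against 1.21% of all genes) and 1 fell (4.17%, against 1.88%), with a median of -0.05. ITGAM, the CD11b chain of the integrin of granulocytes and monocytes, was 6.35, 6.35 and 6.56 with tamibarotene and 4.04 and 4.30 with vehicle. It rose by 2.25 ± 0.20 (4.75-fold, adjusted p = 1.61e-09), and its 2 other probe sets gave 0.52 and 1.62. CEBPB (0.72), a factor of granulocyte formation under stress, and the adhesion molecule CEACAM1 (0.70) also rose, and the repressor GFI1 (-0.54) fell. The 8 other probe sets of CEACAM1 ran from 0.44 to 2.77, and the mean of all gave 1.30. None of these 3 calls held without vehicle replicate 2, when ITGAM was the only riser. CEBPE (-0.02), CEBPA (-0.19) and CSF3R (-0.42) did not pass. Of 18 proteins of secondary and tertiary granules, CHI3L1 (1.08, adjusted p = 0.00034) was the only one called.

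Proteins of primary granules, which are made in promyelocytes, had 4 falls (25%, against 1.88% of all genes) and no rise among 16. Their median was -0.26. CTSG, the serine protease cathepsin G, was 5.33, 5.40 and 4.94 with tamibarotene and 6.27 and 6.30 with vehicle (-1.06 ± 0.13, adjusted p = 1.39e-06). The falls of CST7 (-0.59) and PRSS57 (-0.47) were smaller, and that of LYZ rests on vehicle replicate 1. The count was 1 without vehicle replicate 1 and 2 without vehicle replicate 2 or tamibarotene replicate 1. At an unadjusted p under 0.05, 1 member was higher and 6 were lower. Of 25 monocyte and macrophage markers, S100A9 rose and LY96, LGALS3 and LYZ fell, with a median of -0.13. S100A9, a calcium-binding protein of neutrophils and monocytes, was 6.06, 6.15 and 6.24 with tamibarotene and 4.78 and 5.04 with vehicle (1.23 ± 0.10, adjusted p = 4.37e-10). LY96 was 4.87, 5.20 and 4.98 with tamibarotene and 6.49 and 6.45 with vehicle. CD14 (0.17) and CSF1R (-0.21) did not pass the test.

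Adhesion, cytokine and kinase signaling genes changed in both directions. Of 33 integrins and adhesion molecules, 3 rose (ITGAM, ICAM1 and ITGA5, at 0.73) and 2 fell (CD53 and the alpha 4 integrin ITGA4, at -0.78), with a median of 0.03. ITGA4 did not pass without either vehicle array, and the list had 1 rise and 1 fall without vehicle replicate 1 and 2 rises and 1 fall without vehicle replicate 2. Of 33 NF-kappaB outputs, cytokines and chemokines, 4 rose (12.1%, against 1.21% of all genes) and 3 fell (9.09%, against 1.88%), with a median of -0.01. CCL5, a chemokine for T cells and monocytes, was 6.37, 6.57 and 6.64 with tamibarotene and 4.94 and 5.48 with vehicle (1.32 ± 0.17, adjusted p = 3.89e-06), and its 2 other probe sets gave 0.19 and 1.48. The neutrophil chemokines CXCL8 (0.94) and CXCL2 (0.82) rose, and the inhibitor NFKBIA (-0.47), the cytokine IL32 (-0.67) and CD83 (-0.57) fell. Without vehicle replicate 1 this list had 2 rises and 1 fall, and without tamibarotene replicate 1 or vehicle replicate 2 it had no fall. CCR7, the chemokine receptor that guides cells to lymph nodes, was 5.39, 5.21 and 5.59 with tamibarotene and 3.86 and 4.07 with vehicle (1.43 ± 0.16, adjusted p = 4.42e-07), the only rise among 30 cytokine and chemokine receptors, beside 2 falls, of which 0 or 1 was called without each single array.

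The MAPK feedback genes DUSP4 and IER3 stood out from their list of 25, in which 2 rose and 1 fell. DUSP4, a phosphatase of MAP kinases, was 7.73, 7.68 and 7.62 with tamibarotene and 5.73 and 5.76 with vehicle (1.93 ± 0.19, adjusted p = 1.4e-08). IER3, an early response gene that modulates ERK signaling, was 6.58, 6.71 and 6.71 with tamibarotene and 4.88 and 4.80 with vehicle (1.83 ± 0.14, adjusted p = 2.06e-10). The phosphatase DUSP10 (-0.71) fell. In the ID, BMP and TGF-beta list of 27, ID1 rose and 4 fell (SMAD7, TCF4, TGFBR2 and ID3, from -0.54 to -0.89), with a median of 0.04. The 2 other probe sets of SMAD7 gave -0.28 and -0.13. That list had no fall without vehicle replicate 1 and 1 without any other single array. Of 20 JAK-STAT genes, the kinase PIM2 (0.85) and SOCS3 (0.71) rose and BCL6 (-0.79), STAT4 (-0.64) and STAT6 (-0.63) fell. The falls did not hold without vehicle replicate 1. The rise of SOCS3 did not hold with KG-1a fitted alone, or without tamibarotene replicate 2 or either vehicle array.

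Of 29 genes of lipid handling, 5 fell (17.2%, against 1.88% of all genes) and none rose, with a median of -0.12. At an unadjusted p under 0.05, none was higher and 9 were lower. The 5 were PTGER2, PTGER4, ALOX5AP, LTC4S and PLIN3. PTGER2, a receptor of prostaglandin E2, was 8.31, 8.20 and 8.32 with tamibarotene and 9.24 and 9.30 with vehicle (-0.99 ± 0.17, adjusted p = 0.00024). PTGER4, another receptor of the same ligand, changed by -1.06 ± 0.16 (adjusted p = 4.84e-05), and by -0.30 on its 1 other probe set. ALOX5AP, which presents arachidonic acid to 5-lipoxygenase, was 7.47, 7.36 and 7.52 with tamibarotene and 8.28 and 8.36 with vehicle (-0.87 ± 0.15, adjusted p = 0.000481). LTC4S, which makes leukotriene C4, changed by -0.63 (adjusted p = 0.0029), and the lipid droplet protein PLIN3 by -0.47. Without vehicle replicate 2 the count was 3. Among 33 G protein subunits and purine receptors, CD38, GPR84 (1.18) and P2RX5 (1.08) rose (9.09%, against 1.21% of all genes). P2RY8 (-0.85), GNG11 (-0.68), GNG7 (-0.59) and BST1 (-0.46), a second NAD ectoenzyme, fell (12.1%, against 1.88%). The 1 other probe set of P2RY8 gave -0.08. Without each single array the list had 3 rises and 1 or 2 falls.

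Calls among proliferation genes were few, as they were over all genes. Of 39 DNA replication genes, RRM2 (0.54) was the only one called, a share of 2.56% against 1.21% of all genes. At an unadjusted p under 0.05, 8 of them were higher and 2 lower. Of 33 mitosis genes only MAD2L1 (0.69) was called (3.03%), and its 3 other probe sets ran from -0.25 to 0.78. The median over the mitosis genes was 0.21, and 8 of them were higher and none lower at an unadjusted p under 0.05. Rises among the replication genes numbered 5 with KG-1a fitted alone and 9 with array weights, and among the mitosis genes 3 and 8. MAD2L1 was not called without tamibarotene replicate 2 or either vehicle array. MYC was 12.84, 12.84 and 12.88 with tamibarotene and 12.72 and 12.68 with vehicle (0.15 ± 0.11, adjusted p = 0.691). Of 38 genes of the MYC network and ribosome biogenesis, MXI1 (0.61), an antagonist of MYC, was the only one called. In the list of 16 CDK inhibitors and antiproliferative genes, CDKN2D (0.90) and CCND3 (0.51) rose and CDKN2A (-1.15) and CDKN1A (-0.52) fell. CCND3 is a cyclin and not an inhibitor, so its rise is not one of an antiproliferative gene. It was not called with KG-1a fitted alone or with a replicate block, and its 1 other probe set gave 0.19. CDKN2A, the locus of the p16 inhibitor, was 7.69, 7.79 and 7.81 with tamibarotene and 8.90 and 8.93 with vehicle, while its 2 other probe sets gave -0.50 and -0.15. CDKN1A was not called when any 1 array was left out, and its 1 other probe set gave 0.04. The list had 1 or 2 rises and 1 fall without each single array. Of 24 p53 targets, CDKN1A, TNFRSF10B (-0.52) and SESN2 (-0.54) fell and none rose, with 0 falls without vehicle replicate 1 and 1 without vehicle replicate 2.

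Single genes of other lists rose or fell. MYADM, a membrane protein of myeloid differentiation, was 8.92, 8.90 and 9.0 with tamibarotene and 8.03 and 8.11 with vehicle (0.87 ± 0.09, adjusted p = 1.69e-07), and its 5 other probe sets ran from 0.10 to 0.87. It was the only rise among 29 genes of the cytoskeleton and annexins, where VIM, ANXA6 (-0.62), ANXA2 (-0.58) and S100A4 (-0.48) fell and 1 fall was called without vehicle replicate 1. Of 31 genes of glucose transport, glycolysis and hypoxia, SLC2A5, NDRG1 (0.54) and TXNIP (0.50) rose and BNIP3 (-0.96) fell, although the 1 other probe set of BNIP3 gave 0.07. DDIT4, an inhibitor of mTOR signaling induced by stress, was 11.00, 11.16 and 11.16 with tamibarotene and 9.41 and 9.40 with vehicle (1.70 ± 0.16, adjusted p = 1.03e-08). In its list of 30 genes of amino acid supply and ER stress, MTHFD2 (0.35) also rose and SESN2, ASNS (-0.46) and TRIB3 (-0.44) fell, with 0 falls without vehicle replicate 1 and 1 without vehicle replicate 2. HOXB2 (1.04), the only member called of 17 HOX, MEIS1 and PBX genes, and NFE2 (1.08), the only one of 18 erythroid and megakaryocyte markers, rose. GFI1B (0.67) rose and HHEX (-0.60) fell among 36 hematopoietic transcription factors, of which 3 rose and 3 fell, or 1 fell without vehicle replicate 1. Of 44 interferon response genes, GBP5 (1.05) and RSAD2 (0.64) rose (4.55%, against 1.21% of all genes) and MX1 (-0.62) fell (2.27%, against 1.88%). With each single tamibarotene array left out, that list had 1 to 3 rises and 0 or 1 fall. No member was called by limma among 21 genes of MHC class I, 22 of MHC class II and CD1, 25 of cholesterol and fatty acid synthesis, 28 chromatin regulators and 11 markers of eosinophils, basophils and mast cells. At an unadjusted p under 0.05 these lists had 1, 3, 1, 4 and 2 members higher and 0, 0, 4, 1 and 0 lower, in that order. Of 21 markers of adherent cells 1 was called, ACTA2 (-0.59), which was not called when any 1 array was left out.

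**Figure D3:**
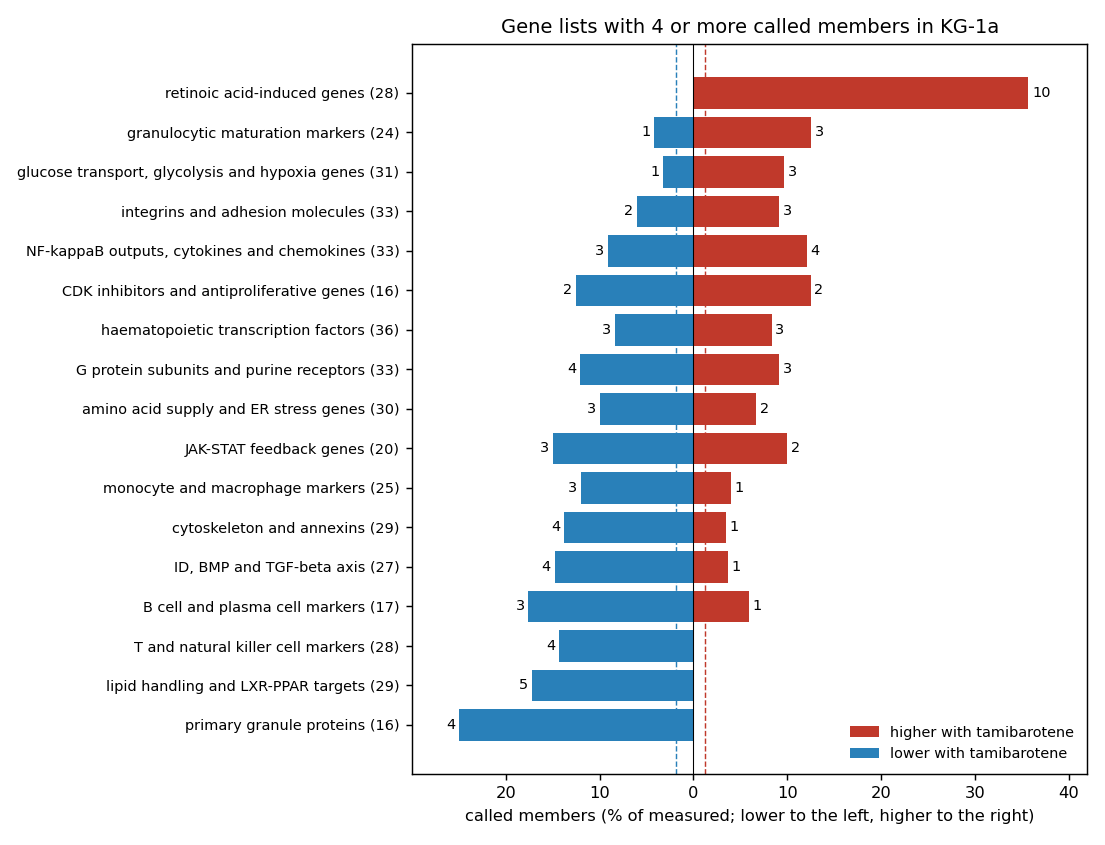
Share of measured members called in KG-1a (% of the number in parentheses), higher with tamibarotene to the right in red and lower to the left in blue, for the 17 of 42 lists with at least 4 called members; numbers at the bars are counts and dashed lines the shares over all genes, 1.21% higher and 1.88% lower. The retinoic acid-induced genes reach 10 of 28 on the right with none on the left, and the primary granule proteins 4 of 16 on the left, 1 of which (LYZ) rests on 1 vehicle array.

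How the KG-1a response differed from the others was tested as the KG-1a difference minus the mean of the same difference in the other 6 lines. It was called positive for 330 genes (1.82%) and negative for 558 (3.08%). Of the 219 rises in KG-1a, 149 were called stronger than in the other lines and 5 weaker (AIG1, CHI3L1, CYP26A1, DHRS3 and PLAAT4). Of the 341 falls, 234 were called more negative and 1 more positive (MCUB). AIG1 and MCUB are named after their values were seen. The 219 and 341 genes were chosen by their change in the same KG-1a arrays, which favors a call of a stronger response. These counts are therefore a description. The counts were 167 and 289 without KG-1a vehicle replicate 1, 119 and 267 without vehicle replicate 2, 217 and 399 without tamibarotene replicate 1 and 199 and 387 without tamibarotene replicate 2. They were 389 and 879 with the Kasumi-1 and Sig-M5 arrays left out.

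The calls shared with other lines differed between rises and falls. MV-4-11, in which 4.32% of genes rose, shared 86 rises, which are 39.3% of those in KG-1a and 11% of its own. OCI-AML3 (5.5% of genes up) shared 72, Sig-M5 (8.5%) 68, NOMO-1 (2.77%) 51, OCI-M1 (0.7%) 25 and Kasumi-1 (0.48%) 11. For 92 of the 219 rises no other line had the same call, and 4 were called up in all 6 others, those of PLAAT4, MYADM, ID1 and CD38. Of the 341 falls, 182 had no counterpart, and 100 were shared with Sig-M5 (29.3% of those in KG-1a and 3% of its own), where 18.4% of genes fell. MV-4-11 (3.4% of genes down) shared 70 falls, OCI-AML3 (6.36%) 50, OCI-M1 (0.386%) 8, NOMO-1 (0.711%) 7 and Kasumi-1 (2.36%) 7. No fall of KG-1a was called down in more than 4 of the other lines. Called genes moved in opposite directions as well: 56 falls of KG-1a were rises of OCI-AML3 and 26 rises of KG-1a were falls there.

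The largest differences above the other lines were in ISM1, LRRC32, HLX, PREX1, MN1 and FHDC1. ISM1 exceeded the mean of the other lines by 2.97 (adjusted p = 2.27e-12), and its change in them ran from -0.27 to 1.45. LRRC32 exceeded it by 2.27, HLX by 2.27, PREX1 by 2.21, MN1 by 2.20 and FHDC1 by 2.12. PREX1 was called up in none of the 6 others, MN1, FHDC1 and ISM1 each in 1, LRRC32 in 2 and HLX in 4, where it rose by up to 1.28 (OCI-AML3). All 15 of the largest falls differed from the mean of the other lines, by -0.93 to -2.43. They were chosen by the size of their fall in the same KG-1a arrays, so this is a description. SNAI2, HHIP, SVOPL, LEF1, CPXM1, C11orf96, WFDC1 and AKR1C6P were called in no other line in either direction.

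Some retinoid-induced genes rose less in KG-1a than the mean of the other lines, though not less than in each of them. DHRS3 rose by 1.54 less than the mean of the other lines (2.60 against 4.14, adjusted p = 3.39e-06), CYP26A1 by 2.27 less (0.66 against 2.93, adjusted p = 1.89e-10) and PLAAT4 by 1.05 less (1.24 against 2.29, adjusted p = 9.47e-05). The lines varied widely around these means. DHRS3 changed by 1.92 in OCI-M1 and 0.44 in Kasumi-1, against up to 6.86 in MV-4-11. CYP26A1 changed by 0.58 in NOMO-1, 0.38 in Kasumi-1 and -0.23 in Sig-M5, against up to 7.10 in OCI-M1. PLAAT4 changed by 1.24 in OCI-M1, 0.93 in Sig-M5 and 0.80 in Kasumi-1, against up to 4.56 in OCI-AML3. KG-1a was not tested against these lines singly. In vehicle arrays KG-1a differed from the mean of the other lines by 4.36 for PLAAT4, 1.86 for CYP26A1 and -1.40 for DHRS3. Whether the starting level bears on the response was not tested. CD38 rose by 1.13 more (4.50 against 3.37, adjusted p = 3.48e-06), although its rise in MV-4-11 was 7.18. For SLC2A5 (0.18), CLIC3 (-0.30), ID1 (0.12) and ITGAM (0.33) the difference was not called, with adjusted p from 0.356 to 0.778. RXRA, which changed by -0.15 in KG-1a, differed by 0.63 from a mean of -0.78 in the others (adjusted p = 0.0159), and without the Kasumi-1 and Sig-M5 arrays by 0.35 (adjusted p = 0.279).

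Genes that rose in several lines and not in KG-1a made up the largest negative differences. CD1D, which presents lipid antigens, was 3.47, 3.65 and 3.29 with tamibarotene and 3.56 and 3.88 with vehicle in KG-1a. It was dim and overlapped between the groups, while it averaged a change of 3.02 in the others, a difference of -3.26 (adjusted p = 7.12e-15). SEL1L3, a relative of the ER degradation factor SEL1L, was 8.29, 8.31 and 8.27 with tamibarotene and 9.59 and 9.29 with vehicle. It fell by 1.15 in KG-1a (adjusted p = 2.15e-06) against a mean of 1.95 in the others, a difference of -3.09, and it was called up in 4 of the other lines and down in 1. CD53, which fell by 1.66 in KG-1a, was called up in 5 of the other lines (difference -2.43). The differences of ITGA6 (-2.68), a laminin-binding integrin chain, GNG2 (-2.49), a G protein gamma subunit, and MYBPH (-2.31), a myosin-binding protein, arose from genes that did not pass the test in KG-1a. For GNG2 the 2 other probe sets in KG-1a had the opposite sign, and averaged over its probe sets the change was -0.10. In vehicle arrays KG-1a already exceeded the mean of the other lines by 4.06 for ITGA6, 4.07 for GNG2 and 1.90 for SEL1L3. It lay below that mean for CD1D (-2.38), MYBPH (-1.17) and CD53 (-0.31). Whether the starting level bears on these differences was not tested. ALOX5AP, which fell in KG-1a, changed by 1.25 on average in the others (difference -2.12, adjusted p = 1.7e-10).

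**Figure D4:**
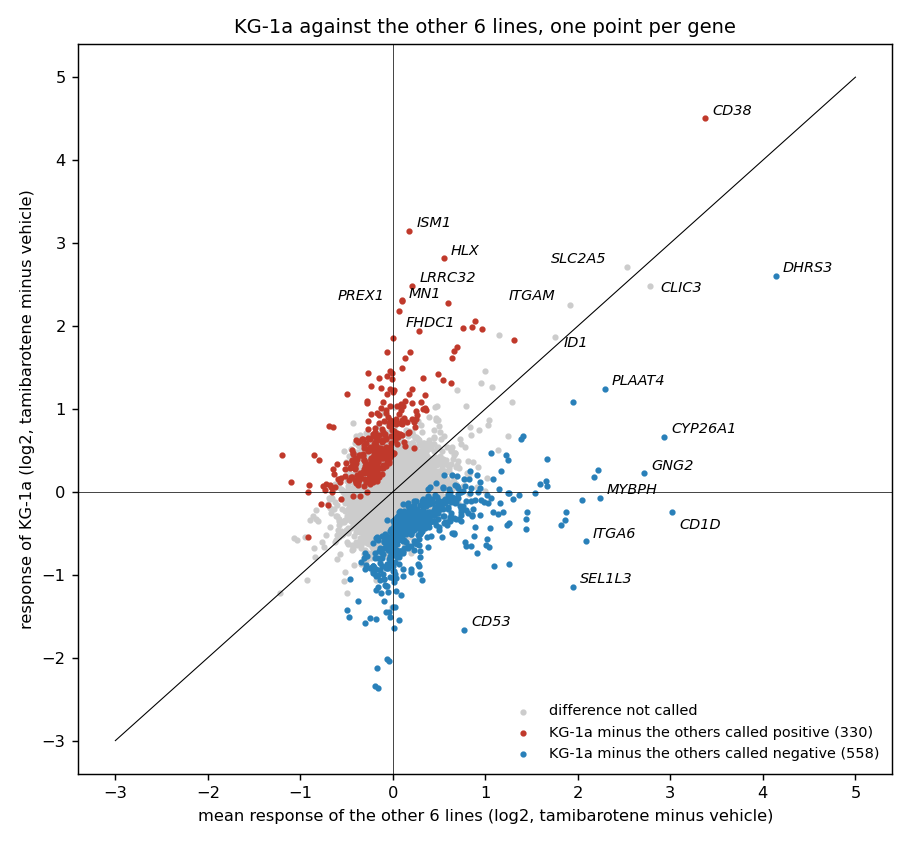
Each point is 1 of 18132 genes, with the mean tamibarotene minus vehicle difference of the other 6 lines (log2) across and that of KG-1a (log2) upward; red and blue points were called for a positive (330) or negative (558) difference between them, and the diagonal marks equal responses. ISM1, HLX and LRRC32 lie high above a small mean change of the others, while CD1D, CYP26A1 and DHRS3 lie well below the diagonal.

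**Figure D5:**
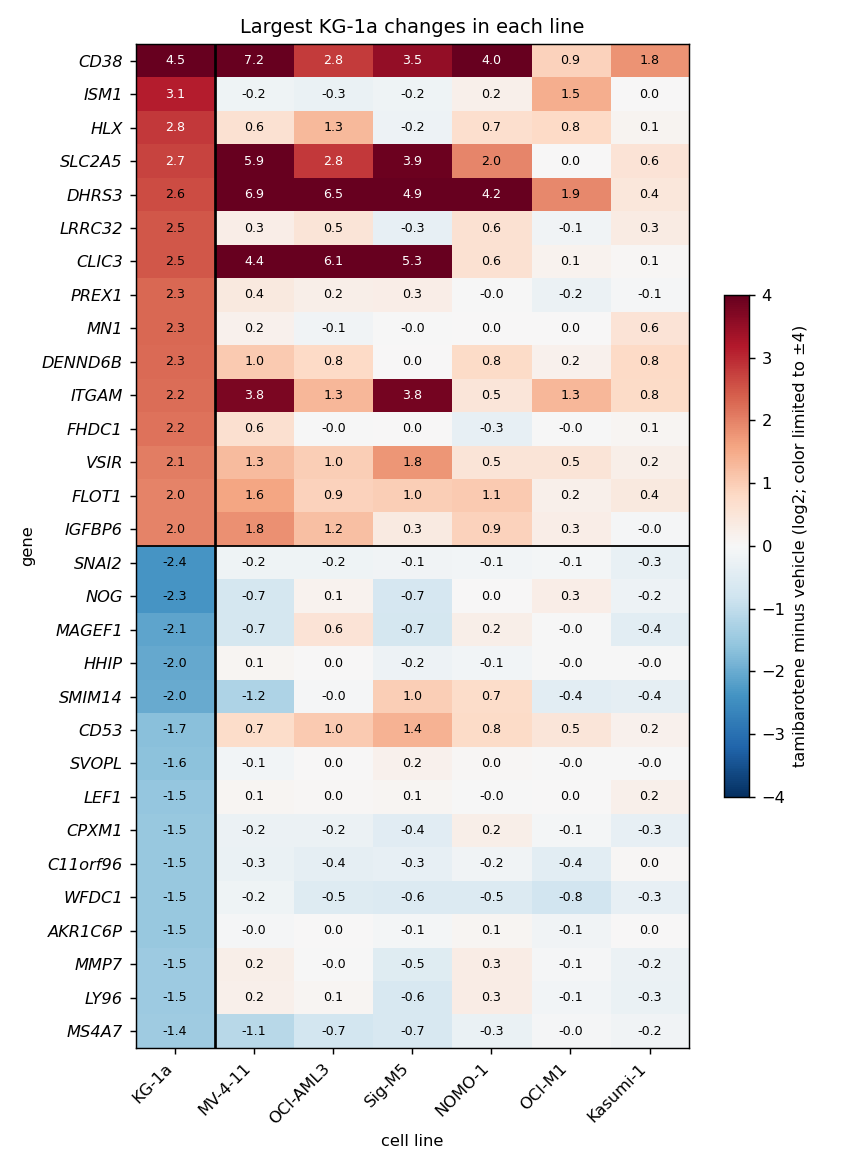
Tamibarotene minus vehicle difference (log2, number and color, color limited to 4 in size) of the 15 largest rises and 15 largest falls of KG-1a in each of the 7 lines, KG-1a in the first column. CD38 is positive in every line, SLC2A5, DHRS3, CLIC3 and ITGAM are large in several, and most falls are near 0 outside KG-1a, where CD53 is positive in all 6.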

How the data were processed

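Normalized intensities of 39 Affymetrix PrimeView arrays were taken as the authors deposited them. Per the submitters' processing notes the values were made with RMA in the affy package, with no version given, and they are on the log2 scale. Whether all arrays were normalized together is not given in the sources used here, and no further normalization was applied. The brightest probe set, by the mean of the 39 arrays, stood for its gene, and 11734 of the 18132 genes had more than 1 to choose from. The 1832 probe sets with several symbols, the 2473 with none and the 102 controls were left out. No genome build belongs to the values.

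With limma 3.58.1 in R 4.3.3, lmFit estimated 14 group means of line and treatment from all arrays and eBayes (neither trend nor robust) moderated the variances on 25 residual degrees of freedom, so the spread is shared by all lines. Contrasts were tamibarotene minus vehicle in KG-1a, that difference minus the unweighted mean of the other 6 lines, and the vehicle level of KG-1a minus that of the other 6. The Benjamini-Hochberg adjustment ran over the 18132 genes, with calls at an adjusted p under 0.05. Errors are standard errors of the fit, and the number of arrays limits their precision. Software for tables was the R package data.table, version 1.17.8, and pandas 2.3.3 under Python 3.11.15. Figures came from matplotlib 3.10.9. The fit was tested on simulated data.

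Genes named are the 15 largest rises and falls whose groups do not overlap, up to 4 called members of each of 42 gene lists, the 6 largest positive and negative differences from the other lines, and 17 fixed genes (MYADM, ID1, PLAAT4, CD38, DHRS3, CYP26A1, RARA, RARB, RARG, RXRA, RXRB, ITGAM, CLIC3, SLC2A5, MYC, CD34 and CD7). Other list members are given as values. Of 1138 list entries, 94 were not matched to a measured gene. Genes, lists and tests were chosen with earlier results of these data known. Alternatives were other ways to pick probe sets, a filter on dim genes, KG-1a fitted alone, Kasumi-1 and Sig-M5 left out, trend and robust estimation, array weights, quantile normalization, a covariate for RNA integrity, a minimum fold, a replicate block and omission of each KG-1a array.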

Additional observations from a re-analysis of the deposited data

Results flagged for a closer look

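For 17 of the named genes the tamibarotene response of KG-1a differed from the mean response of the other 6 lines by a direct test of that difference in limma, adjusted over all genes; values are log2, KG-1a minus the others. Above the others were ISM1 (2.97), LRRC32 (2.27), HLX (2.27), PREX1 (2.21), MN1 (2.20), FHDC1 (2.12), CD38 (1.13) and RXRA (0.63). Below the others were CD1D (-3.26), SEL1L3 (-3.09), ITGA6 (-2.68), GNG2 (-2.49), CD53 (-2.43), MYBPH (-2.31), CYP26A1 (-2.27), DHRS3 (-1.54) and PLAAT4 (-1.05). The largest differences were part of the rule that named 12 of these genes, so their size is a description. RXRA had the highest adjusted p (0.0159) and was the only one of the 17 that missed the threshold under an alternative. Several of the other lines' arrays of Kasumi-1 and Sig-M5 had lower RNA integrity, and the differences called numbered 389 positive and 879 negative without those lines, and 375 and 613 with RNA integrity as a covariate.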

How the results depend on the processing

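Of the 118 named genes called in KG-1a, 68 were called under every alternative that kept the gene, the 15 largest rises and 15 largest falls among them. The filter on dim genes left out some of the 118, which were not tested there. The counts moved most. With array weights 2522 genes were called (950 rises and 1572 falls) and 2765 differences from the other lines (1338 positive and 1427 negative). KG-1a fitted alone gave 351 rises, every probe set tested on its own gave 964 calls (410 and 554), and a log2 change of at least 1 left 117 (71 and 46). Without the arrays of Kasumi-1 and Sig-M5 there were 879 negative differences. Leaving out each KG-1a array in turn gave 260 to 473 calls (117 to 187 rises and 143 to 286 falls) and 386 to 748 differences (119 to 280 positive and 267 to 468 negative). The replicate numbers share no stated source, so the main fit did not pair them. The deviations of same-numbered arrays correlated at 0.012 and -0.072. With 2 vehicle arrays their deviations mirror each other, so this cannot show whether same-numbered arrays share a culture or day. With a replicate block 357 genes rose and 371 fell, and 1354 differences were called (745 positive). Named genes gained calls as well: CD34 under 5 alternatives and CD7 with array weights (0.24, adjusted p = 0.0237). The cause of these shifts was not tested. Signs turned only in values that did not pass the test. With the mean of all probe sets, GNG2 changed by -0.10, the difference of RARB was -0.23 and that of SLC2A5 -0.0199, and the vehicle level of RXRA was 0.22 above the other lines. RARB changed by -0.0226 with the block, and with single arrays left out RARB ran from -0.0226 to 0.1265 and MYBPH from -0.2178 to 0.0663. Quantile normalization left the median of all genes at -0.02. With 2 vehicle arrays, many calls near the threshold depend on each of them, and levels near the bottom of the scale carry little information on change.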

Other observations

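Probe sets outside the gene tests were fitted as well. Of 4305 probe sets with no symbol or several, fitted on their own, 26 were higher and 53 were lower with tamibarotene in KG-1a. Between the KG-1a vehicle arrays, 11 genes differed by at least 1 on the log2 scale, 7 of them higher in replicate 1 and 4 (SNX9, PLOD2, CFP and TNF) higher in replicate 2. LYZ and VIM were the only 2 of the 11 called in KG-1a. Without vehicle replicate 2 the difference of LYZ was -2.97 and that of VIM -2.02.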
